A study of Mus musculus with 86 samples.

Results

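The cells described here are kidney cells that had switched on Pax8 but in which neither Wnt4 nor Lhx1 was detected. They were set beside cells in which Pax8 was detected together with Wnt4, Lhx1 or both. Detection means an RPKM of 1 or more, where RPKM counts the reads of a gene per unit of its length and of the library of that cell. Cells with a Mal2 RPKM of at least 100, a mark of ureteric bud epithelium, were first dropped. Of 86 cells in all, 14 met the first definition (Pax8-only cells) and 11 met the second (induced cells), 25 cells together. A further 26 cells with Six2 and without Pax8, Wnt4 or Lhx1 served as a reference (Pax8-negative Six2 cells). All 3 sets were therefore chosen on measured RPKM values of Pax8, Wnt4, Lhx1, Mal2 and, for the reference, Six2. Values of those genes are given as a description. An order in time between the sets was not tested.

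The cells came from wild-type mouse embryos of a mixed background strain, males and females pooled, at 12.5 days post coitum (Theiler stage 20). Pooled metanephric kidneys were broken up with trypsin and the suspension was run through a Fluidigm C1, whose capture chambers were inspected under a microscope so that those holding single cells were known. Full-length cDNA was made with the SMARTer kit and sequenced on an Illumina HiSeq2500. The 3 sets share genotype, age, pool and protocol, and none received a treatment.

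Nephrons form from mesenchymal progenitors that surround the tips of the ureteric bud and carry the transcription factor Six2. A Wnt signal from the bud drives part of them to gather into a pretubular aggregate, which then becomes an epithelial renal vesicle. Pax8, a paired-box transcription factor, comes on in the aggregate together with Wnt4, the secreted signal that drives the change to epithelium, and Lhx1, a LIM homeobox factor needed for the vesicle to develop.

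All cells come from 1 pool and count as 1 sample, so no comparison below has a test, a p-value or a replicate error. A gene was called higher or lower in one set only where the log2 ratio of (mean RPKM + 1) was at least 1 in size and the share of detecting cells also differed by at least 30 percentage points in the same direction. Ranges are over cells, and SDs are over cells of 1 pool. Intervals of shares are exact Clopper-Pearson 95% intervals and cover counting error only. The comparisons share cells: the Pax8-only cells stand in 2 of them, and so do the induced cells and the reference cells.

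Read depth differed between the cells far more than RPKM values show. For many genes low RPKM values came in steps worth 1 read, and 99.8% of cell pairs had low values that fitted 1 relative depth. Over all genes 49.7% of low values were whole reads within 0.1, and how the authors counted the rest is not given in the sources used here, so read numbers below are estimates. The median cell held an estimated 2010000 mapped reads. Relative to the median of all cells, depth was 0.152 to 1.56 in the Pax8-only cells (median 1.03), 0.577 to 1.16 in the induced cells (median 0.840) and 0.157 to 1.96 in the reference (median 1.07). Cells 48 and 52 of the Pax8-only set, and 2 reference cells, lay below 0.333 of the median depth. The number of genes detected was 5932 in the median Pax8-only cell (4377 to 7100), 6702 in the median induced cell (5582 to 6990) and 6169 in the median reference cell (4342 to 6964).

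Pax8 varied over more than 2 orders of magnitude within the Pax8-only set. Its RPKM was 1.29, 3.22, 3.40, 3.66 and 4.29 in the 5 lowest cells (48, 14, 36, 61 and 26). It was 15.8, 20.2, 23.3, 25.3, 29.8, 40.3 and 41.2 in the next 7. Cells 29 and 32 stood apart at 171 and 344. In the induced cells Pax8 ran from 2.37 in cell 73 to 373 in cell 5, with a median of 113 against 21.7 in the Pax8-only cells. The sets overlapped, since every Pax8-only cell but cell 48 lay inside the induced range and cell 73 lay among the lowest Pax8-only cells.

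**Figure D1:**
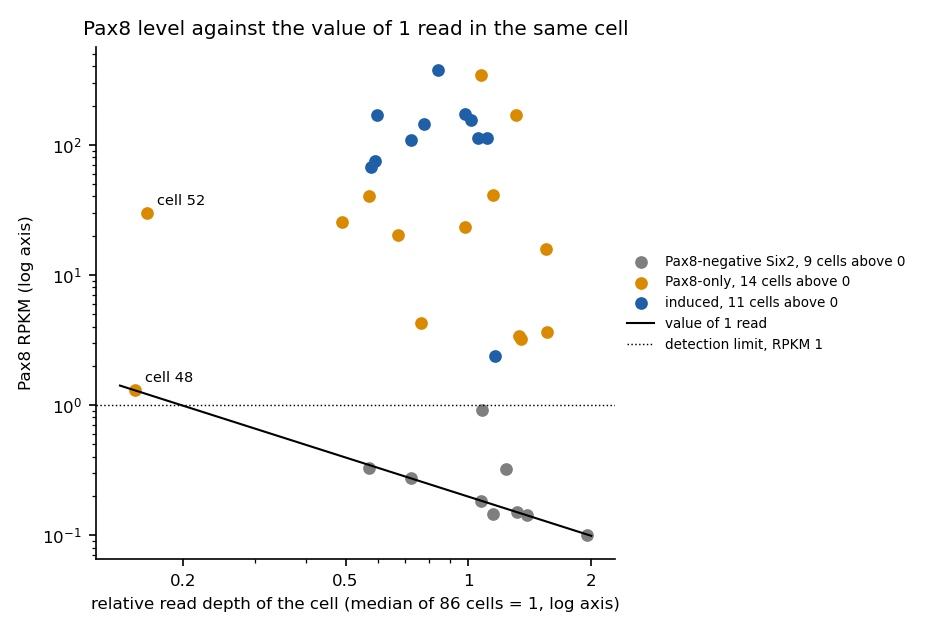
Pax8 RPKM of each cell with a value above 0 (log axis) against the relative read depth of the same cell (log axis), for Pax8-only, induced and Pax8-negative Six2 cells; the solid line is the RPKM that 1 read is worth, and the dotted line is the detection limit. Cell 48 lies on the 1-read line, while the other Pax8-only cells lie well above it.

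At the edge of the definition, membership rested on few reads. The 1.29 of cell 48 equalled the value of 1 Pax8 read. Just outside the limit, cell 62 had a Pax8 RPKM of 0.910 and about 5 reads, more than the cell just inside it. Of the 26 reference cells, 9 had a Pax8 value above 0 but below the limit, and 17 had none. On the induced side, cell 69 was a member only by a Wnt4 of 1.17, about 11 reads, with Lhx1 at 0. With a detection limit of 3 it would be a Pax8-only cell.

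Wnt4 was at 0 in all 14 Pax8-only cells. Lhx1 was at 0 in 13 of them, and cell 61 had 0.463, or 4 reads. One Lhx1 read was worth 1.19 in cell 48 and 1.11 in cell 52, both above the detection limit, so in these cells 1 whole read of Lhx1 would have counted as detection. In the induced cells Wnt4 was detected in 8 of 11 and Lhx1 in 8 of 11. Wnt4 reached 76.4 and Lhx1 45.3, both in cell 5.

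The Pax8-only cells did not form 1 kind of cell by their other markers. Six2 was detected in 10 of 14 (71.4%, interval 41.9% to 91.6%), Cited1, a co-regulator of the least advanced progenitors, in 8, and Foxd1, the transcription factor of stromal progenitors, in 7. Cells 36 and 61 had Foxd1 without Six2. Cells 29 and 32, which had the highest Pax8, had neither Six2 nor Foxd1. By Six2 the word progenitor therefore fits 10 of the 14 cells, and 5 of these also detected Foxd1. Whether they were primed was not tested, and in cell 48 among them Pax8 equalled the value of 1 read. The set is called Pax8-only here.

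The induced cells were mixed in a like way. Six2 was detected in 7 of 11 (63.6%, interval 30.8% to 89.1%), Cited1 in 6 and Foxd1 in 6. Cells 5, 40 and 80 had neither Six2 nor Foxd1, and cell 73 had Foxd1 without Six2. Among cells with Six2, the Pax8 levels of the sides did not overlap: they ran from 1.29 to 41.2 in the 10 Pax8-only cells and from 75.0 to 168 in the 7 induced cells. Among cells without Six2 they did overlap, at 3.40 to 344 in 4 Pax8-only cells and 2.37 to 373 in 4 induced cells. This split by Six2 was made after the values were seen. Pax8 was also used to choose both sides, so the gap is a description of chosen cells. Cells 39, 44 and 54 had Six2 with Wnt4 or Lhx1 but were left out for Pax8 below the limit. Cell 57, dropped for Mal2, had Six2, Wnt4 and a Pax8 of 32.8, inside the Pax8-only range.

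Markers of other cell types were checked in both sides. Of the ureteric bud genes, Ret, Tfap2b and Sim1 were detected in none of the 25 cells and in 6, 4 and 7 of the 7 cells dropped for Mal2. The 14 measured bud genes summed to 0.251 to 83.7 RPKM in the Pax8-only cells and 0.211 to 55.8 in the induced cells, and Hoxb7 was detected in 8 cells of each side. Gata3, a transcription factor of the bud, was detected in 3 Pax8-only cells, up to 56.3 in cell 36, in 3 reference cells and in no induced cell, beside all 7 dropped cells. Calb1 was detected in 1 cell of each side, at 1.14 in cell 48 and 1.05 in cell 73. Of the general epithelial genes, Epcam was detected in 2 cells of each side, up to 46.7 in cell 1 and 34.8 in cell 5, and in 4 reference cells, and Cdh1 in cell 5 alone of the 51 cells (19.1). The part of bud or other epithelial RNA in the results on these cells was not tested. Krt8, a keratin of simple epithelia, was detected in 2 Pax8-only cells and reached 129 in cell 52. The 19 stromal genes summed to 187 to 1226 in the Pax8-only cells (median 520.3), 94.3 to 1230.0 in the induced cells (median 268) and 95.8 to 1034 in the reference (median 572). The table used holds 1 leukocyte gene and 1 erythroid gene of the marker lists. Cd68 was detected in 2 induced cells and no Pax8-only cell, and Alas2 in 2 Pax8-only cells and no induced cell. No doublet caller was run.

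**Figure D2:**
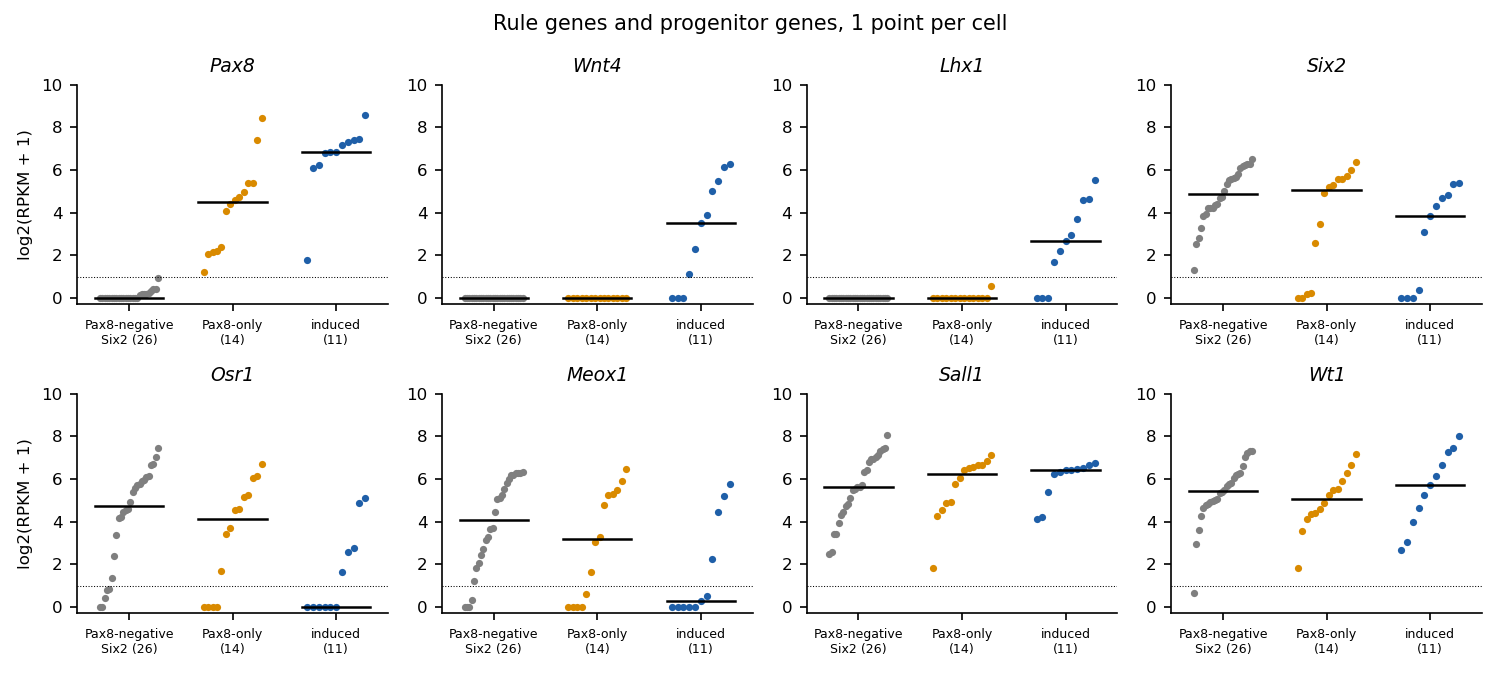
Log2(RPKM + 1) of the genes used for the definition (Pax8, Wnt4, Lhx1, Six2) and of 4 progenitor genes, 1 point per cell, sorted within each set; the bar is the median and the dotted line the detection limit. Sall1 and Wt1 lie at similar levels in the 3 sets, while a larger share of induced than of reference cells lies near 0 for Osr1 and Meox1.

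What was on beside Pax8 was asked by comparing the Pax8-only cells with the Pax8-negative Six2 cells. Of 11287 genes, 71 were called higher (0.629%) and 135 lower (1.2%), and the median log2 ratio of all genes was -0.07. Higher calls included the Notch ligand gene Jag1, the growth factor gene Pdgfa and the cadherin gene Cdh4. Of the fixed list of induced nephron genes, 11 could be compared, 3 were called higher, Jag1 and Cdh4 among them, none was called lower, and the median log2 ratio was 1.36. That list was drawn up with earlier results of these data known. The second question, what came with overt induction, compared the induced with the Pax8-only cells: of 11026 genes, 308 were called higher (2.79%) and 120 lower (1.09%), with a median log2 ratio of 0.01. A direct comparison of induced with Pax8-negative Six2 cells, added after the data were seen, called 214 of 11312 genes higher (1.89%) and 128 lower (1.13%), with a median of -0.06.

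The counts say little about how many genes differ. The induced cells detected more genes each than the Pax8-only cells, and this moved in the same direction as the surplus of higher calls; its part in them was not tested. Leaving out any 1 of the 25 cells raised both counts, to between 322 and 413 higher and between 129 and 183 lower. Apart from Pax8 itself, no gene separated any pair of the 3 sets without overlap. With so few calls over all genes, a short list with none is near the background and is no result about its members. The results below are therefore given by named genes and cells. Among the other settings counted below, a Mal2 limit of 10 left the same cells in each set. Leaving out the filter on mean RPKM could not change a call under the ratio criterion. For Pax8-only over reference, Six2 required in the Pax8-only cells and Six2 required on both sides compare the same cells. A call that held in these settings gained nothing from them.

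Jag1 was on in part of the Pax8-only cells. It was called higher in Pax8-only cells than in the reference and in induced than in Pax8-only cells. It encodes a transmembrane ligand of the Notch receptors and acts in patterning of the renal vesicle (Entrez gene 16449, chromosome 2 from 136907194 to 136942067 in the authors' table, build mm9). In the reference it was detected in 8 of 26 cells, with a lowest value of 0, a median of 0.238 and a highest of 53.1 RPKM. In the Pax8-only cells it was detected in 9 of 14, from 0 to 98.7 with a median of 4.91. In the induced cells it was detected in all 11, from 7.03 to 335 with a median of 42.6.

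Mean Jag1 RPKM was 3.65 ± 10.5 (SD, n = 26 cells), 21.2 ± 31.3 (SD, n = 14) and 76.2 ± 90.7 (SD, n = 11) in the same order. The log2 ratio was 2.26 for Pax8-only over reference, 1.80 for induced over Pax8-only and 4.05 for induced over reference, and all 3 were called. Within the Pax8-only set Jag1 was highest in cells 52 (98.7), 29 (76.4), 61 (42.1), 32 (31.4) and 1 (24.2). Of these, 29, 32 and 61 lacked Six2. With only the 10 Pax8-only cells that had Six2, 6 detected Jag1, the mean was 14.7, and the call over the reference was lost because the detection shares then differed by less than 30 points. That call was also lost without cells of few genes and with all Pax8-negative cells as the reference (4 of 14 other settings in all), and the call of induced over Pax8-only was lost at a detection limit of 3. No single cell decided any of the 3 Jag1 calls.

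The other genes of the Notch list went in both directions, also within a role. Dll1, a second ligand, was detected in 1 of 26 reference cells, 1 of 14 Pax8-only cells and 4 of 11 induced cells (cells 5, 80, 25 and 76), with 132 in cell 5 as the highest. It was called over the reference, a call lost without any 1 of those 4 cells. The receptor gene Notch1 was detected in 5, 2 and 7 cells and called over the reference only (log2 ratio 1.31, lost without cell 73 and in 6 of 15 other settings). Notch3, a receptor gene also used as a mural marker, was detected in 9, 6 and 1 cells and called lower in induced than in Pax8-only cells (-1.74). That call was lost without cell 1, 14, 22, 36, 48 or 61 and in 5 of 15 other settings.

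Among the target genes, Hey1 was detected in 9 of 26, 6 of 14 and 8 of 11 cells with means of 5.27, 15.7 and 66.0 RPKM. Its log2 ratio was 3.42 for induced over reference, which was called, and 1.42 and 2.00 for the other comparisons, which were not. The 6 Pax8-only cells with Hey1 had 8.28 to 58.8, and 4 of them (cells 1, 32, 52 and 61) were also among the 5 highest for Jag1. Heyl was detected in 7, 4 and 8 cells and called higher in induced than in Pax8-only cells (2.27) and than in the reference (1.46). Hes1 was detected in 26, 12 and 10 cells at means of 8.68, 10.1 and 8.28 and was called nowhere. Hes6, which is reported to oppose Hes1, was detected in 18, 10 and 4 cells and called lower in induced than in Pax8-only cells (-1.46). In the Notch list as a whole, 2 of 11 genes were called higher and 2 lower in induced over Pax8-only cells (median 0.78), 1 of 10 higher over the reference in Pax8-only cells (median 0.52), and 5 of 12 higher in induced over reference (median 1.13).

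**Figure D3:**
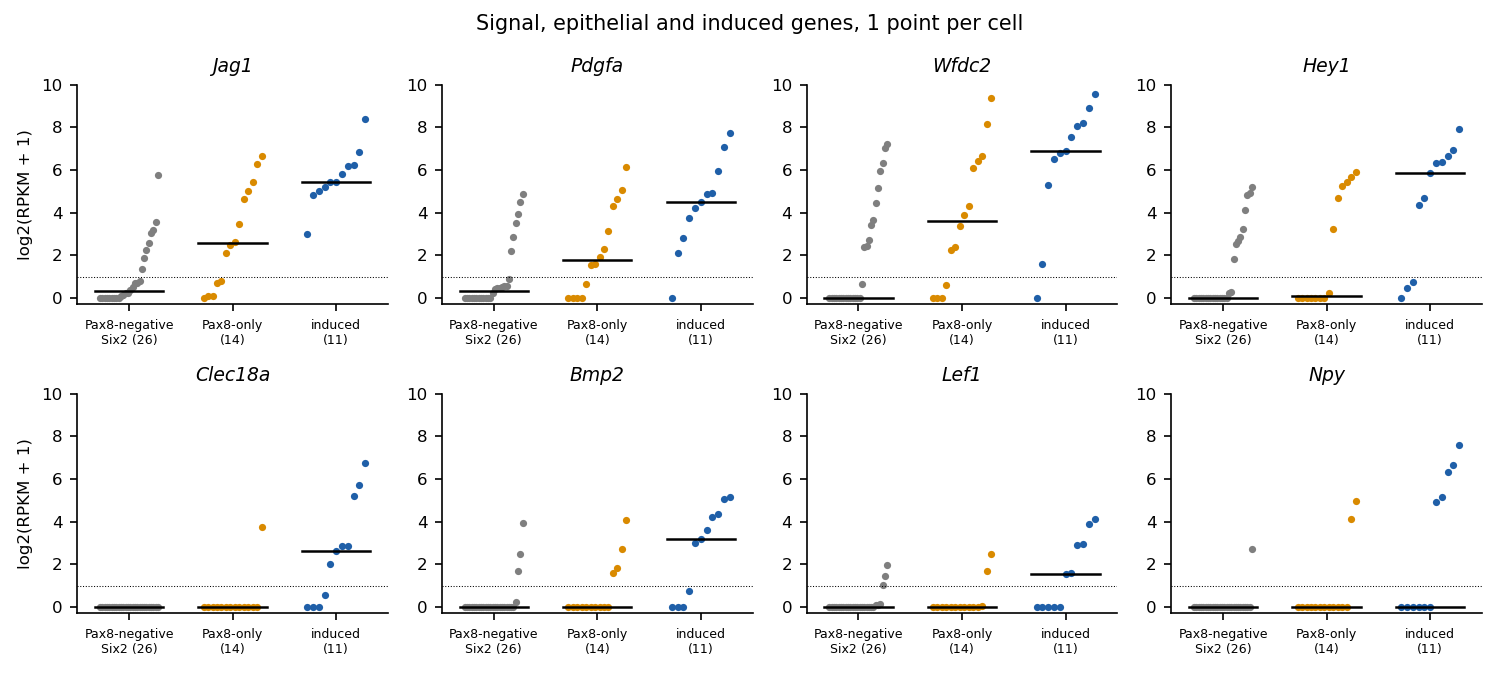
Log2(RPKM + 1) of 8 named genes, 1 point per cell, sorted within each set; the bar is the median and the dotted line the detection limit. For Jag1, Pdgfa and Wfdc2 the Pax8-only median lies between those of the reference and the induced cells, while Clec18a, Bmp2, Lef1 and Npy lie at 0 in most Pax8-only cells.

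Pdgfa and Wfdc2, outside the Notch pathway, had means in the same order over the 3 sets. Pdgfa, which encodes a platelet-derived growth factor chain, was detected in 6 of 26, 9 of 14 and 10 of 11 cells. Its median was 0.246 in the reference (0 to 28.7), 2.41 in the Pax8-only cells (0 to 69.5) and 21.3 in the induced cells (0 to 213). It was called over the reference in Pax8-only cells (log2 ratio 1.53) and in induced cells (3.47). The first of these calls was lost without cell 29 and in 6 of 14 other settings, among them the use of only Pax8-only cells with Six2. Wfdc2, a secreted protease inhibitor of epithelia, was detected in 11, 10 and 10 cells with means of 19.4, 89.3 and 212 RPKM. The Pax8-only mean rested on cells 52 (665) and 32 (283), and only induced over reference was called (3.38).

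Genes called higher in the induced than in the Pax8-only cells included Clec18a, Bmp2, Lef1 and Npy, with ranges that overlapped. Clec18a, a C-type lectin gene of the renal vesicle (Entrez gene 353287, chromosome 8 from 113588238 to 113605988 in the authors' table, build mm9), was listed at 0 in all 26 reference cells. It was detected in 1 of 14 Pax8-only cells, cell 33 with 12.5, and in 7 of 11 induced cells, where it ran from 0 to 106 with a median of 5.21. The log2 ratio of induced over Pax8-only was 3.43, and the call held in each of 15 other settings and without any 1 cell. Of the 7 induced cells with Six2, 6 detected Clec18a, and of the 4 without Six2, 1 did.

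Bmp2, a secreted bone morphogenetic protein, was detected in 3, 4 and 7 cells. It was called higher in induced over Pax8-only cells (2.17) and over the reference (2.82), each in all 15 other settings. The Pax8-only cells with Bmp2 were 17 (15.8), 1 (5.59), 29 (2.57) and 61 (2.01), against up to 34.1 in induced cell 5. Lef1, a transcription factor that acts with beta-catenin, was detected in 3, 2 and 6 cells and called higher in induced over Pax8-only cells (1.82) and over the reference (2.10). Its levels were low, with a highest value of 16.1 in cell 80, and both calls were lost with a pseudocount of 5, a detection limit of 10 or a mean RPKM of 10.

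Npy, which encodes neuropeptide Y, was detected in 1, 2 and 5 cells. In the Pax8-only set it was on in cells 61 (30.4) and 32 (16.3), both without Six2, and in the induced set it reached 191 in cell 5. The call over Pax8-only cells (3.22) was lost without cell 5, 40, 43, 56 or 73. Cdh6, a cadherin of the early tubule, was below the limit in all 40 cells of the reference and Pax8-only sets and on in induced cells 69 (56.0), 73 (38.0), 5 (33.6) and 43 (2.20). The tight junction gene Cldn6 was likewise below the limit in the reference and Pax8-only cells and on in induced cells 79, 43 and 5 at 60.4, 53.3 and 21.6. With 3 of 11 cells Cldn6 was not called. The Cdh6 call of induced over Pax8-only cells was lost in 3 of 15 other settings, among them detection limits of 3 and 10. Cell 69, with the highest Cdh6, was induced only by a Wnt4 of 1.17.

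Ccnd1, the gene of cyclin D1, differed in level and not in detection. All 14 Pax8-only cells detected it, from 1.18 to 150 with a median of 36.4, beside 21 of 26 reference cells with a median of 22.6. In the induced cells the median was 189 and the highest value 691, in cell 5. The log2 ratio of induced over Pax8-only was 2.21, and the gene was not called because 10 of 11 induced cells detected it. Cell 5 held the highest induced value of Pax8, Wnt4, Lhx1, Jag1, Dll1, Clec18a, Bmp2, Npy and Ccnd1, and it detected 16 of the 20 measured induced nephron genes, the most of any of the 51 cells.

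Of the induced nephron list, 18 genes could be compared between induced and Pax8-only cells. Of these 18, 6 were called higher (Jag1, Bmp2, Cdh6, Lef1, Clec18a, Npy), none lower, with a median log2 ratio of 1.81. For induced over reference, 8 of 18 were called higher and the median was 2.59. Counted per cell, the reference cells detected 1 to 7 of the 20 measured list genes (median 3), the Pax8-only cells 3 to 10 (median 5.5) and the induced cells 5 to 16 (median 8). The ranges overlapped: Pax8-only cell 61 detected 10 and cells 1 and 22 detected 8. Fgf8, an early marker of the aggregate, has no row in the table used here.

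**Figure D4:**
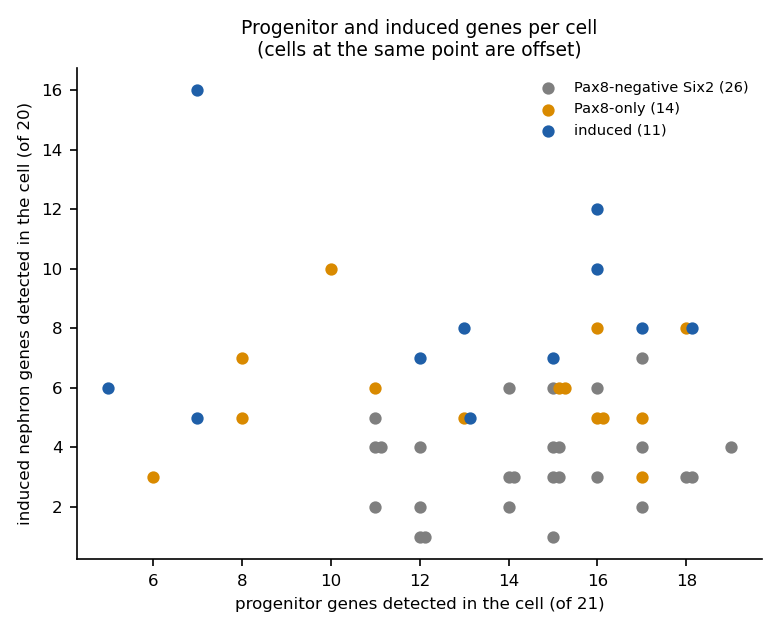
Number of measured induced nephron genes detected (of 20) against the number of measured progenitor genes detected (of 21), 1 point per cell of the 3 sets. Pax8-only cells reach 10 induced genes and induced cells 16, and cells of both sides with few progenitor genes lie at the left. Six2 is among the progenitor genes and is detected in every reference cell by definition.

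Genes of the Wnt response were mostly not called. Between induced and Pax8-only cells 2 of 23 were called higher, Lef1 and the receptor gene Fzd7 (1.65), and the median was -0.13. The Fzd7 call was lost without any 1 of 7 Pax8-only cells. Axin2, a common target of the beta-catenin branch, was detected in 4, 2 and 1 cells. Of 22 genes none was called between Pax8-only cells and the reference, with a median of 0.00. The FGF list had no call in any of the 3 comparisons (15 genes compared each time, medians -0.33, 0.14 and -0.19 for induced over Pax8-only, Pax8-only over reference and induced over reference).

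Progenitor genes were in part detected in every cell and in part in fewer cells of the Pax8 sets. None of 21 compared genes was called between the sides, with 13 ratios below 0 and a median of -0.32. Against the reference, 13 of 20 ratios of the Pax8-only cells were below 0 (median -0.18). Six2 (-0.33) is among these genes although it was used to choose the reference, so its ratio is a description only. Rspo1, a Wnt agonist gene, was the only gene called lower (-1.25). Its call was lost without reference cell 72 and in 9 of 14 other settings. Sall1, a zinc finger factor that maintains progenitors, was detected in every cell of the 3 sets, with medians of 47.8, 74.5 and 83.8. Wt1 and Crym were detected in every Pax8-only and every induced cell. The cadherin genes Cdh2 and Cdh11 were detected in all 51 cells.

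Some progenitor genes were detected in fewer cells from the reference to the induced set. Osr1, an odd-skipped factor of early kidney mesenchyme, was detected in 21 of 26, 10 of 14 and 5 of 11 cells, with medians of 26.0, 17.3 and 0 RPKM. Meox1, a homeobox gene, was detected in 22, 9 and 4 cells with medians of 16.3, 8.00 and 0.213. Both were called lower in induced cells than in the reference (-2.47 and -1.48), and neither was called in the comparisons that hold the Pax8-only cells. Both calls were lost when all Pax8-negative cells served as the reference, and that of Osr1 also when Six2 was required on both sides; the reference was itself chosen on Six2. Within the Pax8-only set Osr1 was on in 8 of 10 cells with Six2 and 2 of 4 without, and Meox1 in 8 of 10 and 1 of 4. A link with Six2 was not tested, and with 4 cells without Six2 these shares are coarse. Among the induced cells with Six2, Osr1 was on in 5 of 7 and Meox1 in 3 of 7.

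Snai2, a repressor of epithelial genes, was detected in 18, 8 and 3 cells with medians of 24.4, 3.85 and 0. It was called lower in induced cells than in the reference (-1.98). Prrx1, a mesenchymal homeobox gene, was detected in 10, 1 and 1 cells and called lower in Pax8-only cells than in the reference (-2.19), a call that any 1 of the 10 reference cells with it could end. Of 10 mesenchymal regulators compared with the reference, 9 had a ratio below 0 in the Pax8-only cells (median -0.99) and 8 in the induced cells (median -0.97), beside medians of -0.07 and -0.06 over all genes. Both counts use the same reference cells. Of 19 stromal genes, the median reference cell detected 11.5, the median Pax8-only cell 6.5 and the median induced cell 6. The part of this difference in the mesenchymal ratios was not tested.

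The progenitor list also had 2 genes called higher in induced cells than in the reference. Tmem100, a membrane protein gene, was detected in 10, 8 and 8 cells at means of 15.4, 29.4 and 45.8 (1.52 for induced over reference). Pax2, a paired-box gene related to Pax8, was detected in 4, 4 and 5 cells and had its highest value in cell 73 (56.5). Its call (2.54) lay at the edge of the criteria: leaving out any 1 of 27 of the 37 cells ended it, among them the 5 induced cells that detected it, as did 6 of 15 other settings. In the authors' deposited table, which sets a class named six2only over one named six2andcited1, Tmem100 has a fold of 14.2, Osr1 of -17.3 and Meox1 of -4.28. Signs differed for Snai1, Bmper and Slc44a1, with folds there of 5.79, 6.42 and 7.12. Their log2 ratios for induced over reference were -2.33, -1.08 and -0.41, none of them called. Of the 35 cells in that table, 7 are Pax8-only cells and 5 are induced cells; the columns do not say which class a cell was put in.

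Epithelial junction genes had few calls, and matrix genes were called in both directions against the reference. Of 24 junction and polarity genes, 2 were called higher in induced over Pax8-only cells, Cdh6 among them, and the median was 0.09. Of 19 basement membrane genes compared between induced and reference cells, 2 were called higher and 3 lower (median 0.63), beside 1.89% and 1.13% of all genes; none of 17 was called between the sides and none of 19 between Pax8-only cells and the reference. The laminin genes Lamc1 (12, 9 and 10 cells) and Lama4 (8, 6 and 9 cells) were called higher in induced cells than in the reference (1.87 and 2.12), each in all 15 other settings. Mean Lamc1 was 5.04, 12.7 and 21.1 and mean Lama4 2.97, 12.4 and 16.3, though the Pax8-only Lama4 mean rested on cell 32 (122). The matrix genes Frem1, Nid1 and Lamb2 were called lower in induced cells than in the reference (-2.39, -1.17 and -1.71). The Frem1 call held in all 15 other settings, the Nid1 call was lost without reference cell 11 and with a pseudocount of 5, and the Lamb2 call was lost in 6 settings and without any 1 of 8 reference cells.

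**Figure D5:**
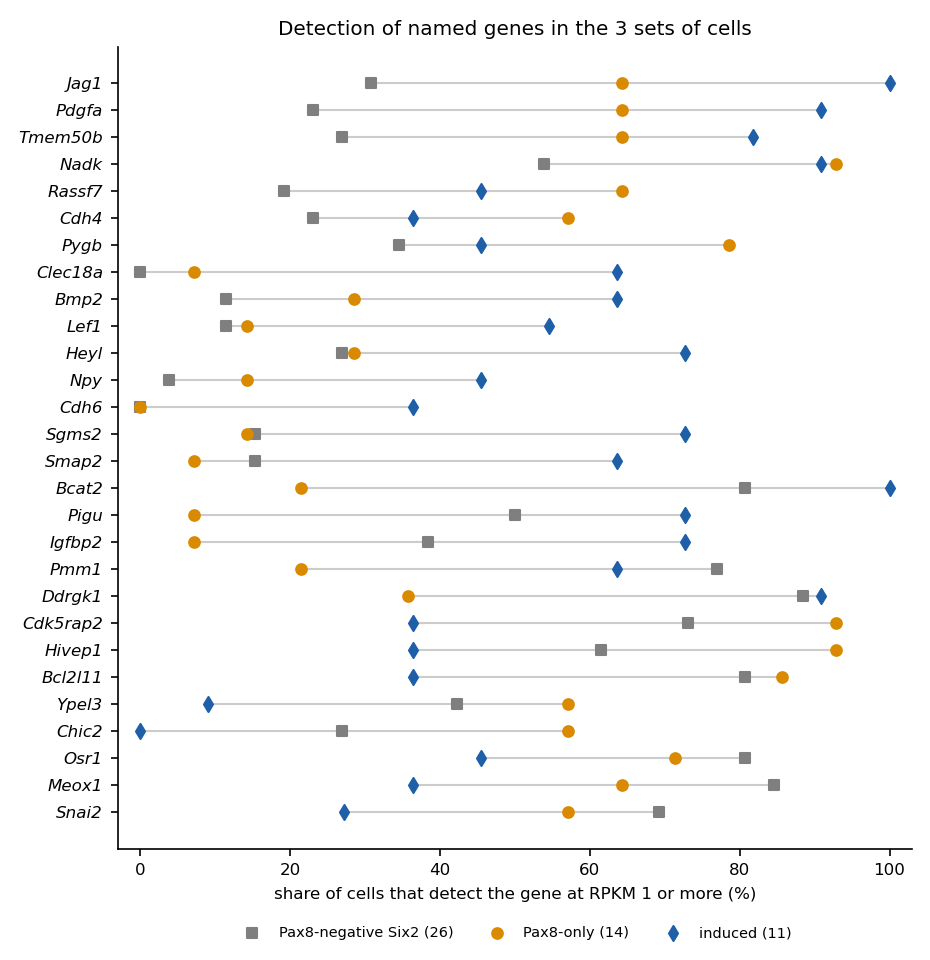
Share of cells that detect each of 28 named genes at an RPKM of at least 1, in Pax8-negative Six2 (square), Pax8-only (circle) and induced cells (diamond), with a grey line over the range of the 3 shares. Jag1 and Pdgfa run in the order of the sets, Clec18a to Smap2 are high in induced cells alone, and Bcat2 to Ddrgk1 are low in the Pax8-only cells alone.

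Other genes were called higher in Pax8-only cells than in the reference and were not called higher again in the induced cells. Rassf7, a Ras-association family gene, was detected in 5 of 26, 9 of 14 and 5 of 11 cells with means of 2.49, 21.6 and 27.6 (2.69 over the reference). Nadk, which makes NADP, was detected in 14, 13 and 10 cells with means of 12.7, 42.0 and 36.9 (1.65). Tmem50b was detected in 7, 9 and 9 cells with means of 3.43, 31.7 and 36.7 (2.89). Pygb, a glycogen phosphorylase gene, was called higher in Pax8-only cells than in the reference (2.01) and lower in induced than in Pax8-only cells (-1.57), with 9, 11 and 5 detecting cells. The second of these calls was lost without induced cell 10, 40, 43, 76, 79 or 80 and without the shallow cells.

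The Rassf7 and Pygb calls over the reference held in all 14 other settings. Cdh4 was detected in 6, 8 and 4 cells, and its call (1.36) was lost without cell 52, one of the shallow cells, and in 7 of 14 other settings, among them the use of only Pax8-only cells with Six2.

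Several of the genes that differed most in detection between the sides were detected in few Pax8-only cells and in many reference cells. Bcat2, a branched-chain aminotransferase gene, was detected in 21 of 26, 3 of 14 and 11 of 11 cells, with medians of 19.1, 0.146 and 39.6. Pigu, a subunit gene of the GPI transamidase, was detected in 13, 1 and 8 cells with means of 17.4, 0.291 and 25.1. Pmm1, a phosphomannomutase gene, was detected in 20, 3 and 7 cells, Ddrgk1 in 23, 5 and 10, and Igfbp2, an insulin-like growth factor binding protein gene, in 10, 1 and 8.

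For Bcat2 the log2 ratio was 2.73 for induced over Pax8-only and -2.16 for Pax8-only over reference, and for Pigu 4.34 and -3.83. These pairs share the Pax8-only cells, so one low value in the shared set moves both. Induced over reference was 0.57 for Bcat2 and 0.51 for Pigu, and neither was called. Their values in the induced cells thus stood out from the Pax8-only cells and not from the reference. Sgms2, a sphingomyelin synthase gene (4, 2 and 8 cells), and Smap2, an Arf GTPase-activating protein gene (4, 1 and 7 cells), were called higher in induced cells than in both other sets (3.81 and 2.46 for Sgms2, 3.23 and 2.40 for Smap2).

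Among the genes called lower in induced than in Pax8-only cells, some were detected widely in both other sets. Cdk5rap2, a centrosome protein gene, was detected in 19 of 26, 13 of 14 and 4 of 11 cells, with medians of 5.41, 9.39 and 0.765. Bcl2l11, the pro-apoptotic factor Bim, was detected in 21, 12 and 4 cells with medians of 9.32, 8.10 and 0.620. Both were called lower in induced cells than in Pax8-only cells (-1.78 and -2.52) and than in the reference (-1.69 and -2.72). Hivep1, a zinc finger factor gene, was detected in 16, 13 and 4 cells (-1.78 for induced over Pax8-only). Chic2 was detected in 7, 8 and 0 cells, and its highest induced value was 0.574. Of the 4, only the Chic2 call over Pax8-only cells held in all 15 settings; the other 3 were lost at a detection limit of 10.

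Cell cycle and stromal genes had no call between the sides, while most G2/M ratios of induced over Pax8-only cells lay below 0. Of 17 S phase genes and 19 G2/M genes none was called in induced over Pax8-only cells, with medians of -0.02 and -0.37 and with 9 and 15 ratios below 0. Genes that nearly every cell detects can hardly meet the criterion on detection. For Pax8-only over reference, 14 of 19 G2/M ratios were above 0 (median 0.29). For induced over reference, 9 were above and 10 below 0 (median -0.09). The G2/M genes detected per cell ran from 7 to 19 in the Pax8-only cells (median 17) and 4 to 19 in the induced cells (median 16). Induced cells 25, 73 and 80 detected 4, 4 and 8, and Pax8-only cells 52 and 32 detected 7 and 10. Of 18 stromal genes none was called in any of the 3 comparisons, with medians of -0.24 for induced over Pax8-only, -0.48 for Pax8-only over reference and -0.80 for induced over reference, and with 10, 13 and 15 ratios below 0. Over all genes, 50.4%, 45.3% and 46.2% had a ratio above 0 in the same order. Foxd1 was detected in 19 of 26, 7 of 14 and 6 of 11 cells. Meis1, a stromal homeobox gene, was detected in 13 of 14 Pax8-only cells, with medians of 98.8, 69.8 and 44.2 RPKM over the 3 sets.

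The 4 Pax8-only cells without Six2 differed among themselves. Cell 36 had little Pax8 (3.40), Jag1 of 0.0704, 6 of 21 progenitor genes, 3 induced genes and 13 of 19 stromal genes. Cell 61 had a Pax8 of 3.66, the 4 Lhx1 reads given above, 10 induced genes and 11 stromal genes. Cells 29 and 32 had 4 and 5 stromal genes, 8 and 11 progenitor genes, and Jag1, Wfdc2 and Pax8 inside the range of the induced cells, yet Wnt4 and Lhx1 were at 0 in both. The induced ranges were wide: that of Pax8 held every Pax8-only cell but cell 48, and that of Jag1 also held cells 1, 52, 61 and 90. By read counting alone, a count of 0 allows up to 3 reads, which for Wnt4 would be an RPKM of about 0.272 in cell 29 and 0.331 in cell 32, both below the detection limit. In the shallow cells 48 and 52 the same 3 reads would be about 2.33 and 2.18, above the limit. A count of 0 there therefore allows a Wnt4 level at the limit. One Wnt4 read was worth about 0.778 and 0.728 in these cells. These limits cover counting error only: amplified reads are not independent molecules, and a transcript lost before amplification gives 0 at any depth.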

How the data were processed

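RNA was measured in 86 single cells of 1 pool. The deposited RPKM table (12360 genes) was made by the authors, who list TopHat 1.4.1, DESeq and build mm9 per the submitters' processing notes. A second deposited table (450 genes, 35 cells) holds a signed fold between 2 of the authors' classes, kept as a score. No step was redone. Compared genes had a mean RPKM of 1 or more in either set, with a pseudocount of 1. Named genes were, in each planned comparison, the 12 highest and 12 lowest called genes by detection difference with a mean of at least 10 in the higher set, up to 4 members of each of 24 lists, and a set of kidney genes. Others, named after their values were seen, are list members called outside that rule. Members and lists were chosen with earlier results of these data known. Relative depth came from the steps of low values. Of 383802 low values over 10919 genes, 49.7% were whole reads within 0.1 (Pax8: 17 of 19), and absolute depth used GENCODE transcript lengths, not the authors' models, as did the Wnt4 step. The comparison and the depth step were tested on simulated data. Python 3.11.15, pandas 2.3.3 and numpy 2.4.6 were used. Some genes of the lists are not reported here.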

Additional observations from a re-analysis of the deposited data

Results flagged for a closer look

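In all, 9 cells outside the 2 sides detected Pax8, Wnt4 or Lhx1. Pax8 was below the limit in 3 cells with Wnt4 or Lhx1: cell 39 had Lhx1 of 1.16 RPKM with Pax8 of 0.191, cell 44 had Wnt4 of 9.30 with Pax8 at 0, and cell 54 had Wnt4 of 48.6 with Pax8 of 0.495. All 3 detected Six2 (34.5, 7.45 and 61.7), none detected Clec18a, and Jag1 was 1.91, 0.641 and 0.118. Cell 44 was the deepest of the 86 cells, with a relative depth of 3.07.

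Among the 7 cells dropped for Mal2, Pax8 was 6.53 in cell 20, 42.4 in cell 47 and 32.8 in cell 57. Their Mal2 was 1602, 1521 and 1734. Cells 47 and 57 also detected Six2 (12.1 and 50.4), and cell 57 detected Wnt4 (7.68). Lhx1, a gene also known from the ureteric bud, was detected in 4 of the 7 dropped cells, at 28.5 in cell 3, 5.49 in cell 74, 2.28 in cell 18 and 1.71 in cell 20. Cell 18 also detected Six2 (18.6).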

How the results depend on the processing

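Counts are given as higher and lower. With a pseudocount of 5 they were 153 and 76 for induced over Pax8-only, 36 and 61 for Pax8-only over reference, and 105 and 70 for induced over reference. With a mean RPKM of at least 10 they were 160 and 61, 42 and 66, and 133 and 64 in the same order. Means of log2 values gave 331 higher for induced over reference. Lower counts for induced over Pax8-only were 188 at a detection limit of 3, 253 at 10, 287 with Pax8-only cells limited to Six2, 254 with induced cells limited to Lhx1, 186 limited to Wnt4 and 186 without shallow cells. Lower counts for induced over reference were 236 at a limit of 10, 248 with Lhx1 only, 200 with Wnt4 only and 214 with Six2 required on both sides. The Six2 limits gave 155 higher for Pax8-only over reference and, with both sides limited, 551 and 364 for induced over Pax8-only. Leaving out 1 cell each gave 70 to 113 and 121 to 210 for Pax8-only over reference and 193 to 262 and 114 to 171 for induced over reference; for induced over Pax8-only 322 to 413 and 129 to 183. The limits on Six2, leave-outs, shallow cells and the comparison of induced with reference cells were added after seeing the data, except the Six2 limit on Pax8-only cells. Ratios that changed sign were induced over Pax8-only for Atg13 (-0.012 at a limit of 3, -0.12 at 10), Cdh6 (-0.013 at 3), Sgms2 (-0.089 at 10) and Asah1 (-0.71 at 10), and induced over reference for Atg13 (-0.54 at 3, -0.26 at 10). These limits also move cells between sets, and the cause of each change was not tested. Called named genes kept their call in all settings, cell leave-outs aside, for 6 of 45, 5 of 36 and 14 of 42 in the order above. The settings include those that could not change a call or that repeat the same cells. No paired analysis was possible because all cells are 1 group with 1 pool.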
